A study of Homo sapiens with 267 samples.

Results

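Natural killer (NK) cell ligands were followed through RNA libraries of K562, an established human leukaemia cell line of erythroid character. The study sequenced single cells together with bulk samples. The 8 genes were MICA, MICB, ULBP1, ULBP2, ULBP3, NCR3LG1, PVR and NECTIN2, and their rows were found among the 63677 genes of the count table by matching Ensembl identifiers to gene symbols. All 8 had a row, and 7 had at least 1 read. Of 267 libraries in the labels, 263 had a column of counts, from a study of single cells captured on the C1 microfluidic system. The labels separated 3 runs. In the Hoechst run, 96 libraries came from untreated cells stained with Hoechst and propidium iodide, at passages labelled 90 to 92. In the benzene run, 36 libraries with counts came from untreated cells in CellTracker Green, and 35 from cells in CellTracker Orange given 10 mM benzene for 3 h. In the imatinib run, 51 came from untreated CellTracker Green cells, and 45 from CellTracker Orange cells given 1 µM imatinib, an inhibitor of the BCR-ABL kinase on which K562 depends, for 1 h. Both CellTracker runs carried passage labels of 20 to 22.

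The labels tie libraries to a run and not to separate cultures, so the libraries of a run were not counted as replicates of a treatment. The dye and the drug cannot be told apart, because every drug-treated library was Orange and every untreated CellTracker library was Green. By the study's account the cells of the Hoechst run were another lot of K562, and their libraries were sequenced with longer reads. The methods also describe fresh and fixed cells, bulk samples and empty sites, none of which the labels used here tell apart. Libraries with more than 70% of their gene reads in 500 genes (21 of 263) were set aside, which left 82, 31, 34, 50 and 45 libraries in the groups as listed. Depth was 50358 to 2043351 reads on genes per library. In 29 of the 242 libraries kept, more than 9000 genes had over 2 reads.

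K562 cells carry little class I HLA on their surface and are a standard target of NK cells. NK cells weigh activating against inhibitory signals. NKG2D, an activating receptor, binds MICA, MICB and the ULBP proteins, which are distant relatives of class I HLA molecules and are raised by cell stress and transformation. NKp30 binds B7-H6, the product of NCR3LG1. DNAM-1 binds PVR and NECTIN2, cell adhesion molecules of the nectin family that are also bound by the inhibitory receptor TIGIT.

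On GRCh37, the build of the counts, the NKG2D ligands all lie on chromosome 6, MICA at 31367561 to 31383092 and MICB at 31462658 to 31478901 within the HLA region, both on the plus strand. ULBP2 (150263150 to 150270371, plus strand), ULBP1 (150285079 to 150294851, plus strand) and ULBP3 (150382189 to 150390257, minus strand) lie close together on the long arm. NCR3LG1 is on chromosome 11 at 17373347 to 17398888, and PVR (45147098 to 45169430) and NECTIN2 (45349432 to 45392480) are on chromosome 19, all on the plus strand. The promoters of MICA and MICB are shown because these paralogous genes held the most alike windows of the group, and that of ULBP3 because it is the gene without a read. Each window runs from 250 bases before to 50 after the RefSeq start on GRCh38.p14. Capitals mark matches, on either strand, to the GC box GGGCGG, the CCAAT box, the heat shock element core GAANNTTC, the TATA box TATAAA and the E-box CACGTG.
MICA: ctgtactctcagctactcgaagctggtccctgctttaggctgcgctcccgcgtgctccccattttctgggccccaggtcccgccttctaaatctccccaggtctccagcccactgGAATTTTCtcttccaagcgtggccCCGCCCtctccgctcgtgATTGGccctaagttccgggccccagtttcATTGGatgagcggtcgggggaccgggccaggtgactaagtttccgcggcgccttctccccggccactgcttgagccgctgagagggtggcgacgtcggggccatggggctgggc
MICB: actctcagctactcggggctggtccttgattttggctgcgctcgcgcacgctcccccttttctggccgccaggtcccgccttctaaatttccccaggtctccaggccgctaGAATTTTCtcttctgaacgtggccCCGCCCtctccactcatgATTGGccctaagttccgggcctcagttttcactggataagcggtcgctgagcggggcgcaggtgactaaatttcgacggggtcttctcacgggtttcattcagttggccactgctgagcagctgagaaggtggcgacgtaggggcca
ULBP3: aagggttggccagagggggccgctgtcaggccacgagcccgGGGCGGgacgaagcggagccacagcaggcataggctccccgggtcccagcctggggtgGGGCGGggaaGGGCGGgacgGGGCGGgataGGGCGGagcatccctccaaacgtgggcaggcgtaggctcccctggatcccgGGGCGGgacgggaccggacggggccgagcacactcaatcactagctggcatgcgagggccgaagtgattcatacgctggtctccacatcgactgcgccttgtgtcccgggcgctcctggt

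On GRCh38.p14 these windows are chr6:31403345-31403644 (plus strand) for MICA, chr6:31497895-31498194 (plus strand) for MICB and chr6:150069072-150069371 (minus strand) for ULBP3. MICA and MICB shared 246 of 316 aligned columns (77.9%), while the other pairs among the 8 genes shared 40.6% to 50.8%. Both held a heat shock element core, at -135 and -139 from the start, a motif known to be bound by heat shock factors, and 6.87% of 27305 promoters held these letters. The windows of the other 6 genes did not hold them. The ULBP3 window held 6 GC boxes, a motif present in 44.6% of promoters, and its GC content was 70.7%, against a median of 58.7% over all promoters.

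NCR3LG1, NECTIN2, MICB and MICA were the ligand genes found most often in K562, and ULBP1, ULBP2 and PVR were found in a minority of libraries in every group. NCR3LG1 had at least 1 read in 193 of 242 libraries (79.8%), NECTIN2 in 191 (78.9%), MICB in 155 (64%) and MICA in 130 (53.7%). PVR was found in 75 (31%), ULBP1 in 42 (17.4%) and ULBP2 in 37 (15.3%). ULBP3 had 0 reads in all 263 libraries, which allows a share of up to 1.14% of them and a level of up to 0.00922 CPM (counts per 1000000 reads on genes, the unit of every level below). Of the 75-base windows of its transcripts, 93.8% occur in no other gene, so reads of ULBP3 could have been assigned to it. Among the further ULBP genes, RAET1G also had 0 reads in the libraries kept and RAET1E had reads in 5.

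Per length, a scale on which genes can be compared roughly, MICB, NECTIN2, NCR3LG1 and MICA stood above the rest. The lengths came from another annotation than the counts. Of the ULBP2 and PVR windows, 20.8% and 18.1% recur in other genes. The paper also reports a mild bias of reads towards the downstream ends of genes in fixed cells. The part of these in the order was not tested. Over all libraries kept the levels divided by exon length were 12.2 for MICB, 11.3 for NECTIN2, 9.84 for NCR3LG1 and 7.37 for MICA, all in RPKM, that is CPM per 1000 bases. ULBP2 followed at 5.53, while ULBP1 at 1.01 and PVR at 0.760 were lowest of the genes with reads. The order changed between groups. MICB led in the Hoechst run (16.5) and in imatinib-run Green (15.9), but was at 1.88 in benzene-run Green, where NECTIN2 led at 15. ULBP2 led in benzene-run Orange at 17.1 and was at 0.0532 in Green of the same run. These last leading places rested on 1 library each. With the highest library of each gene left out, NECTIN2 was at 6.49 in benzene-run Green, below NCR3LG1 at 8.14, and ULBP2 was at 7.37 in Orange, below NECTIN2 at 10.1 and NCR3LG1 at 8.28.

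**Figure D1:**
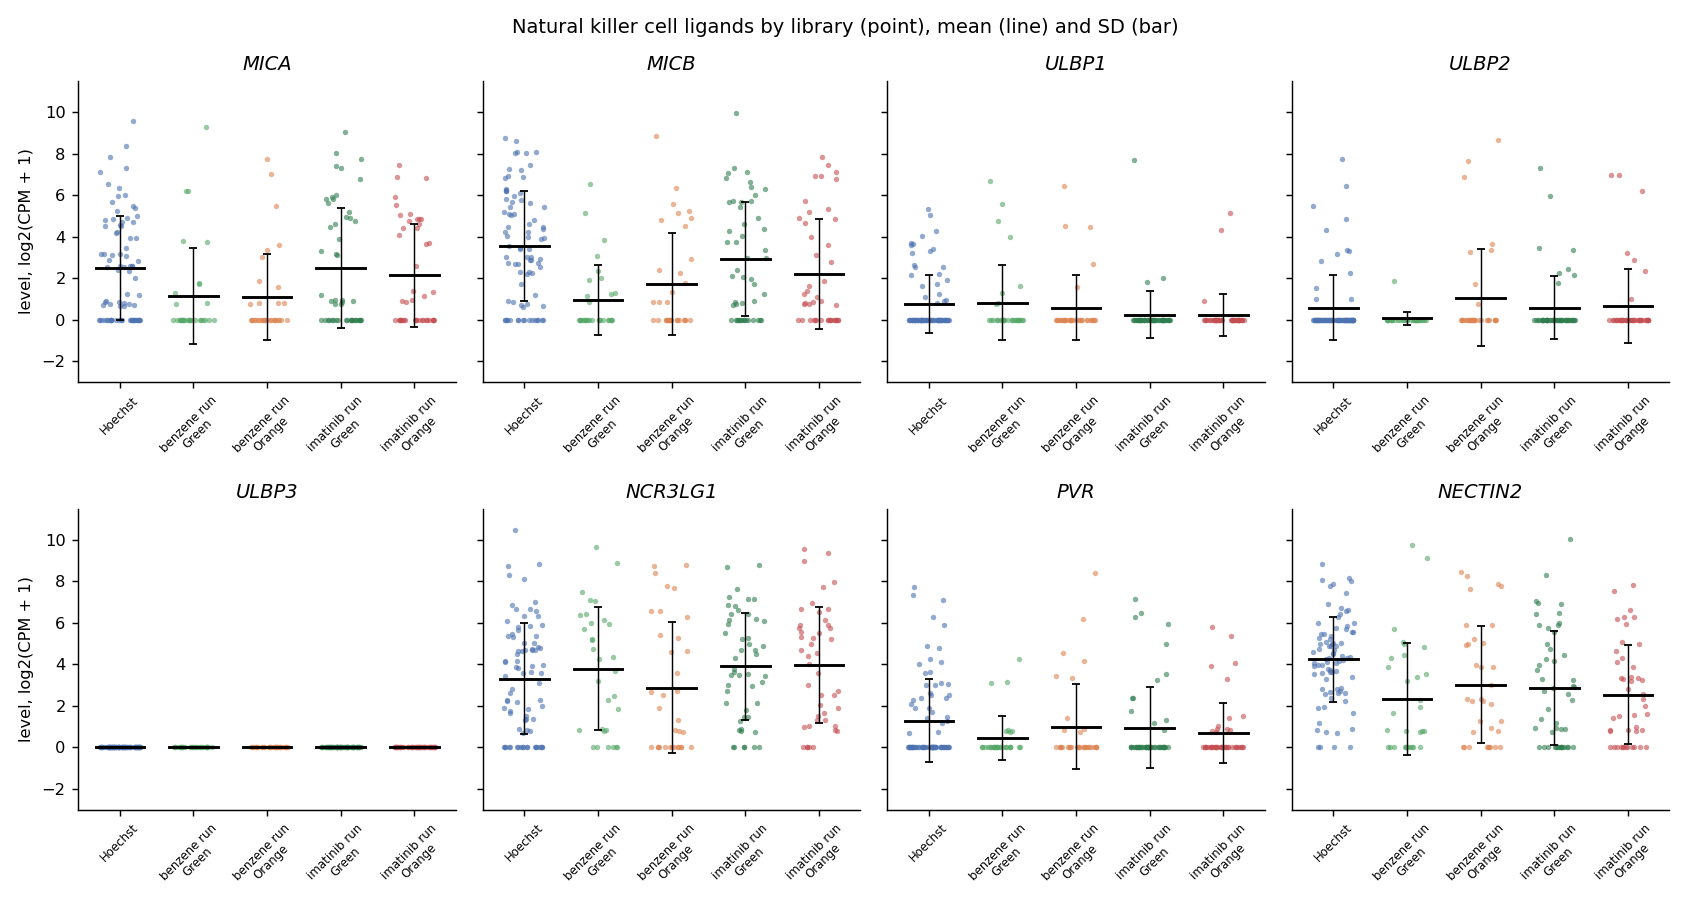
Level of each NK cell ligand gene, as log2(CPM + 1), in every library kept (points), with the group mean (line) and SD (bar). In most groups the points of ULBP1, ULBP2 and PVR sit at 0 with a few high libraries, ULBP3 is at 0 throughout, and the groups overlap for every gene.

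MICA, a transmembrane ligand of NKG2D, was found in 67.1% of Hoechst-run libraries, 32.3% and 35.3% of benzene-run Green and Orange libraries, and 58% and 53.3% of imatinib-run Green and Orange libraries. Its CPM ran from 0 to 774 with a median of 4.17 in the Hoechst run, from 0 to 631 in benzene-run Green and 0 to 214 in Orange, both with a median of 0. In the imatinib run, Green libraries ran from 0 to 523 (median 0.868) and Orange libraries from 0 to 175 (median 0.860). Thus most benzene-run libraries had no MICA read at all. A single Green library of that run held 80.9% of the group's MICA reads, so the group's level of 27.6 CPM fell to 5.47 without it.

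MICB, the paralogue of MICA, had the largest gap between group means of the 7 genes with reads. It was found in 80.5% of Hoechst-run libraries (0 to 426 CPM, median 9.73) and in 70% of imatinib-run Green libraries (0 to 991, median 3.81). In imatinib-run Orange it was found in 60% (0 to 229, median 0.816). In benzene-run Green it was found in 35.5% (0 to 92.3, median 0), and in Orange in 47.1% (0 to 466, median 0). The low group was benzene-run Green, with 5.25 CPM over the summed reads against 26.2 to 46.1 in the other groups. Without the highest library of each group it was at 2.11, while benzene-run Orange fell from 26.2 to 10.2 (1 library held 62.6% of the reads) and imatinib-run Green from 44.6 to 27.5. On the scale of log2(CPM + 1) the highest and lowest group means were 3.55 ± 2.64 (SD, n = 82) and 0.95 ± 1.67 (SD, n = 31). This gap of 2.60 did not exceed the larger SD, and the same held for all 10 pairs of groups in each of the 7 genes with reads.

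ULBP1 and ULBP2, ligands of NKG2D held in the membrane by a lipid anchor, were confined to few libraries, and 1 library could decide the level of a group. ULBP1 was found in 28% and 25.8% of Hoechst-run and benzene-run Green libraries, in 14.7% of benzene-run Orange, and in 6% and 6.67% of imatinib-run Green and Orange. In imatinib-run Green 1 library gave 97.2% of the ULBP1 reads, and the level of 3.97 CPM became 0.113 without it. ULBP2 was found in 15.9% of Hoechst-run libraries, in 16% and 15.6% of imatinib-run Green and Orange, and in 8 of 34 benzene-run Orange libraries (23.5%). In benzene-run Green it was found in 1 of 31 (3.23%, exact 95% interval 0.0816% to 16.7%), with 3 reads. That library had 11248 genes over 2 reads, and so was among those with over 9000. The highest ULBP2 library in benzene-run Orange reached 402 CPM and held 58.2% of the group's reads. Of the ULBP2 windows, 20.8% recur in RAET1L or RAET1G, and both of these had 0 to 0.0435 CPM in every group.

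NCR3LG1 is the NKp30 ligand. Its summed levels were 58.2 CPM in the Hoechst run, 73.9 and 63.1 in benzene-run Green and Orange, and 52.8 and 72.9 in imatinib-run Green and Orange. It was found in 61.8% to 88.9% of libraries, and group medians ran from 2.10 CPM in benzene-run Orange to 20.1 in imatinib-run Orange. The highest library reached 1409 CPM and gave 39.4% of the NCR3LG1 reads of the Hoechst run, whose level was 35.8 CPM without it. Of its 6320 windows of 75 bases, 0 recur in another gene on either strand in the annotation used here for lengths. The counts were made with another annotation, whose overlaps were not checked, and no source says that counting used strand.

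Of the DNAM-1 ligands, NECTIN2 was widespread and PVR sparse. NECTIN2 was found in 78 of 82 Hoechst-run libraries (95.1%, exact 95% interval 88% to 98.7%), with a range of 0 to 463 CPM and a median of 18.9. In the CellTracker groups it was found in 64.5% to 73.5%, with medians of 0.805, 3.87, 5.28 and 2.93 CPM in benzene-run Green and Orange and imatinib-run Green and Orange. The summed levels did not follow this order, being 43.3 CPM in the Hoechst run and 56.1 in benzene-run Green, where 1 library held 58.3% of the reads. PVR was found in 39% of Hoechst-run libraries (0 to 212 CPM), 22.6% and 29.4% of benzene-run Green (0 to 18) and Orange (0 to 343), and 26% and 28.9% of imatinib-run Green (0 to 143) and Orange (0 to 54.7), with a median of 0 in all 5 groups. The end of PVR overlaps CEACAM19, and 18.1% of its windows recur in that gene or an unnamed one there.

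**Figure D2:**
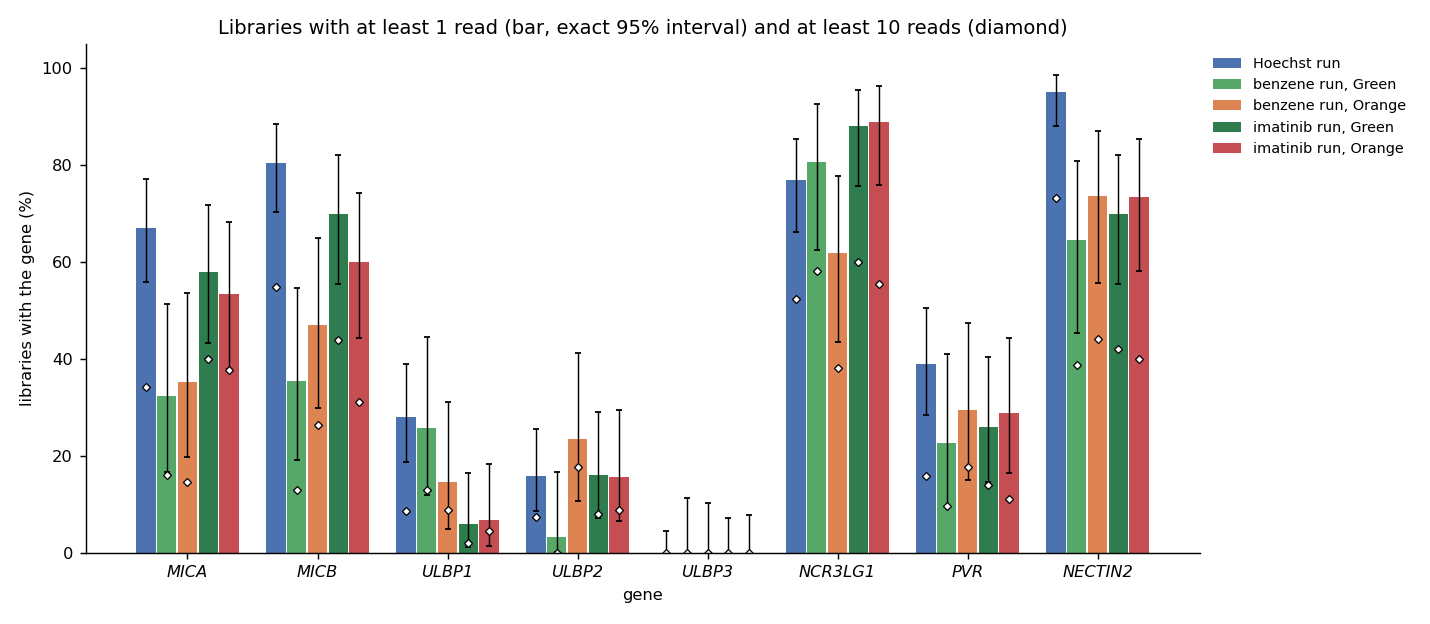
Percentage of libraries with at least 1 read of each gene (bars, with exact 95% binomial intervals for counting error only) and with at least 10 reads (diamonds), by group. NECTIN2 and NCR3LG1 are found in over 60% of libraries of every group, MICA and MICB are lowest in the benzene run, and ULBP3 is at 0.

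Detection depends on depth and on how many cells or molecules a library holds. After every library was thinned to 500000 reads (2 shallower libraries left out), the expected shares were 58.7%, 25.2%, 26.3%, 48.8% and 46.6% for MICA in the groups in the above order. For MICB they were 73.4%, 28%, 39.5%, 61.5% and 47.8%, and for NECTIN2 90.2%, 52.6%, 64.2%, 61.7% and 61.9%. The benzene run therefore stayed lowest for MICA and MICB at equal depth, and the Hoechst run highest for NECTIN2. Benzene-run libraries also held fewer genes, with medians of 5963 and 5860 genes over 2 reads in Green and Orange against 7410 in the Hoechst run and 8082 and 7797 in the imatinib run. The part of this in the shares was not tested.

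The 29 libraries with over 9000 genes were chosen by the number of genes found, so that a higher share with reads of a ligand follows in part from the choice, and the values are a description. NCR3LG1 was found in 29 of 29 of them and in 77% of the other 213, with mean CPM of 47.5 ± 33.5 (SD, n = 29) and 63.5 ± 157 (SD, n = 213). PVR was found in 79.3% against 24.4%, ULBP1 in 41.4% against 14.1% and ULBP2 in 37.9% against 12.2%. For MICA the shares were 86.2% and 49.3%, with mean CPM of 22.5 ± 27.9 and 27.2 ± 88.5 (SD, the same libraries). NECTIN2 was at 20.6 ± 21.8 CPM in the libraries with many genes and 46.4 ± 119 in the others. The smaller SD of CPM did not hold on every scale, since the SD of log2(CPM + 1) was 1.81 in the libraries with many genes and 1.27 in the others for ULBP1, and 1.84 and 1.76 for PVR. Whether these libraries held more than 1 cell is not given by the labels used here.

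A library usually held reads of 3 of the 8 genes. The median number was 4 in the Hoechst run, 2 in benzene-run Green and 3 in each of the other groups, with means of 4.02 ± 1.48, 2.65 ± 1.31, 2.85 ± 1.64, 3.34 ± 1.49 and 3.27 ± 1.30 (SD over libraries). At least 1 NKG2D ligand was found in 91.5% of Hoechst-run libraries, 58.1% and 70.6% of benzene-run Green and Orange libraries, and 82% and 75.6% of imatinib-run Green and Orange libraries. Counting only the 8 genes, and so NCR3LG1 alone for NKp30, ligands of all 3 activating receptors were found together in 138 of 242 libraries (57%). The share ran from 35.5% in benzene-run Green to 68.3% in the Hoechst run. BAG6, another NKp30 ligand found in 97.9% of libraries, was not counted. A single gene usually made up most of a library's ligand reads, with a median share of 73.9%. That leading gene was NCR3LG1 in 82 libraries, NECTIN2 in 63, MICB in 46, MICA in 28, PVR in 10, ULBP1 in 6 and ULBP2 in 4, and 3 libraries had no read of any ligand.

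**Figure D3:**
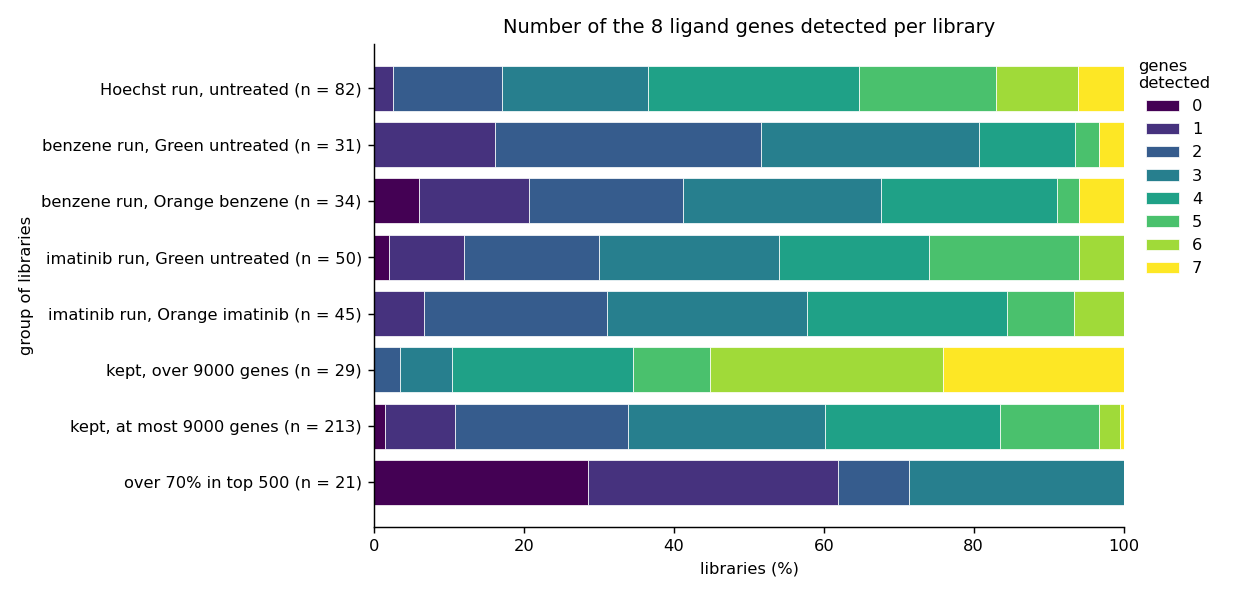
Share of libraries (horizontal axis, %) by the number of the 8 genes detected (colour), in the 5 groups, in the libraries kept with over and with at most 9000 genes, and in the 21 libraries set aside. The median is 6 in the 29 libraries with over 9000 genes and 1 in those set aside.

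Whether the ligands differed between drug-treated Orange and untreated Green cells was asked within each CellTracker run and over both. Within a run there is 1 sum of reads per stain and no replicate, so ratios are given without a test, on the scale of log2(CPM + 1), and a gene was read as past 2-fold at an absolute log2 ratio of at least 1. In the benzene run 3 of 7 ligands tested were past 2-fold, where 25.7% of all genes tested were. ULBP2 entered only through Orange, where it was found in 23.5% of libraries against 3.23% in Green, so that its ratio is given as a value and nothing is read from it. Among genes found in at least 20% of libraries of both stains, 2 of 5 ligands (MICB and PVR) were past 2-fold, and 22.9% of all such genes. MICB was at 26.2 CPM in Orange and 5.25 in Green (log2 ratio 2.12), PVR at 14.2 and 1.14 (2.83), and ULBP2 at 22.8 and 0.0710 (4.47), the last against 3 reads in Green. The ratios of reads, with intervals for counting error only, were 4.99-fold (4.32 to 5.79) for MICB, 12.5-fold (9.34 to 17.2) for PVR and 321-fold (110 to 1560) for ULBP2. MICB and PVR were also past 2-fold without the highest library of each group (1.85 and 1.75). For ULBP2 that value was 3.44, from which nothing is read for the same reason. With equal weight of libraries, the differences of mean log2(CPM + 1) were 0.77 for MICB, 0.56 for PVR and 1.00 for ULBP2. The SD between Orange libraries was larger, at 2.44, 2.06 and 2.34.

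The other 4 ligands of the benzene run were less than 2-fold apart. MICA was at -0.94 (13.9 against 27.6 CPM) and at 0.32 without the highest library of each group. ULBP1 was at -0.47, NCR3LG1 at -0.22 and NECTIN2 at -0.28, the last becoming 0.62 without the highest libraries. The median of the 7 ligands was -0.22, beside 0.04 over all genes tested.

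In the imatinib run 2 of 5 ligands tested were past 2-fold, both lower in Orange, where 9.36% of all genes tested were past it, and 7.85% of those found in at least 20% of libraries of both stains, as all 5 ligands were. MICA was at 18.8 CPM in Orange and 39.4 in Green (log2 ratio -1.03), and PVR at 3.74 and 9.23 (-1.11). Without the highest library of each group they were at -0.98 and -1.10, so that MICA moved to the other side of the line. NECTIN2 was at 24.1 and 45.5 CPM (-0.89) and at -0.49 without the highest libraries, and MICB at 28.4 and 44.6 (-0.63) and -0.22 without them. NCR3LG1 was at 72.9 and 52.8 (0.46). ULBP1 and ULBP2 were found in under 20% of libraries of either stain and were not tested. The median of the 5 was -0.89, beside -0.02 over all genes tested. With equal weight of libraries, the differences of mean log2(CPM + 1) were -0.37 for MICA, -0.27 for PVR and -0.32 for NECTIN2, and no ligand was past 2-fold.

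**Figure D4:**
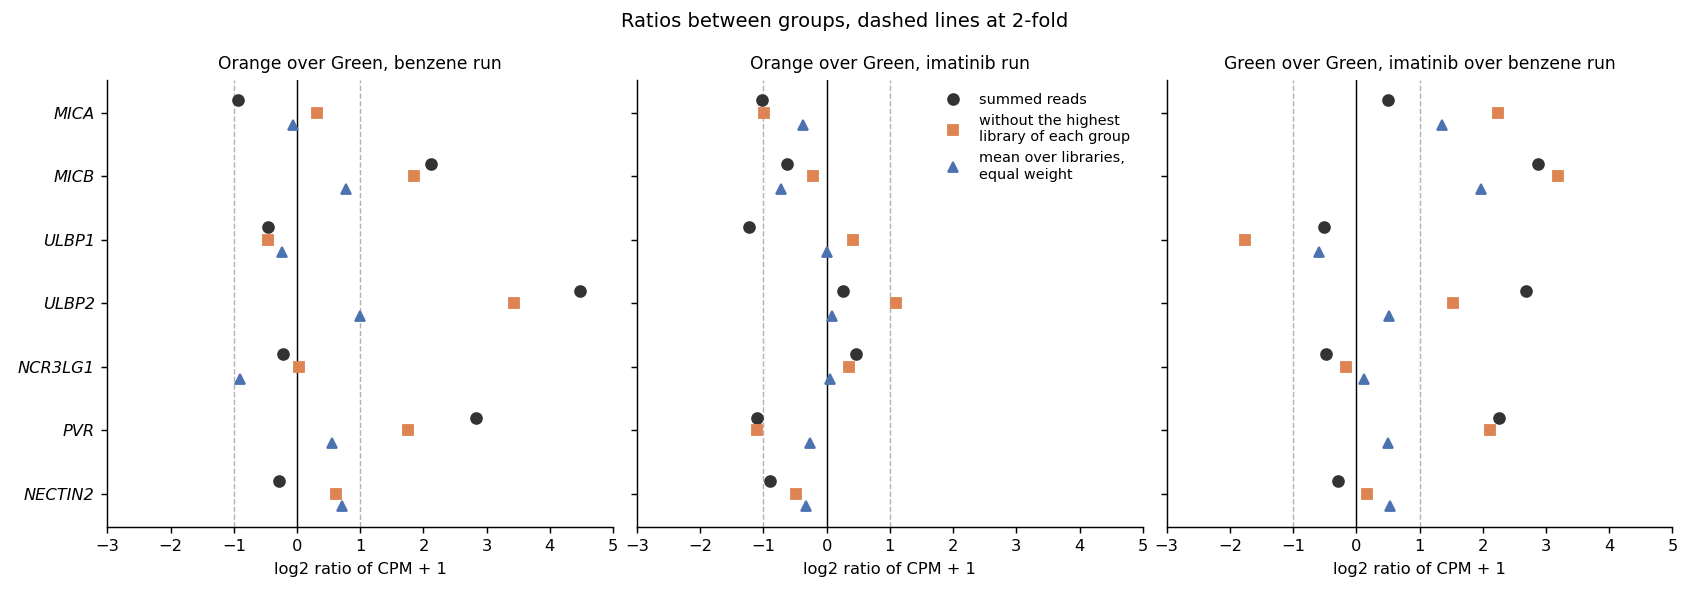
Log2 ratio of CPM + 1 for 7 ligand genes (ULBP3 had no read) in the benzene run, the imatinib run and between the Green groups of both. Circles are ratios of summed reads, squares leave out the highest library of each group, triangles are differences of means over libraries, and dashed lines mark 2-fold. MICB and PVR lie to the right in the benzene run for all 3 measures, while MICA, NCR3LG1 and NECTIN2 there change side. ULBP2 also lies to the right there, but it was tested only because of its share in Orange libraries.

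Over both runs, the 4 sums were compared by edgeR's quasi-likelihood test with the run as a term and Benjamini-Hochberg adjustment. The Orange sums came from different drugs, benzene and imatinib, so the test asks only for a shift shared by both. A change that differs between the drugs goes into the residual. Of 17684 genes, 0 were called at an adjusted p under 0.05 (0.0%), and 439 had an unadjusted p under 0.05. DESeq2 called 117 and limma-voom 0. No ligand was called by any of these tools. Each SE below was worked back from the test, as the absolute log2 fold change divided by the square root of the F statistic. The edgeR log2 fold changes of Orange over Green were -1.04 for MICA (SE 0.44), 0.81 for MICB (SE 0.94) and -1.21 for ULBP1 (SE 0.97). For ULBP2 the value was 3.94 (SE 3.06), for NCR3LG1 0.10 (SE 0.34), for PVR 1.14 (SE 1.87) and for NECTIN2 -0.62 (SE 0.36), with an adjusted p of 1 for all 7. By edgeR the smallest unadjusted p was that of MICA (0.0789), whose Orange sum was lower than the Green sum in both runs. In the benzene run this rested on 1 library, since the log2 ratio was 0.32 without the highest library of each group. With equal weight of libraries it was -0.06 there. By DESeq2 ULBP2 had an unadjusted p of 0.000874 (adjusted p 0.0783) and MICA one of 0.0364 (adjusted p 0.504), both with Benjamini-Hochberg adjustment. With 1 residual degree of freedom per gene and a different drug in each run, a miss of the threshold does not show that the levels were alike under either drug.

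Between untreated cells, the groups differ in run, and the Hoechst run also in lot, passage, dye and read length. By the study's account, fixed cells of the Hoechst run were stored longer. Dead cells were sequenced in that run but excluded in the CellTracker runs. The differences between groups cannot be assigned to any of these. Green cells of the imatinib run over those of the benzene run were past 2-fold for 2 of 6 ligands tested (31.7% of all genes tested), MICB at 2.87 (44.6 against 5.25 CPM) and PVR at 2.26 (9.23 against 1.14). Without the highest library of each group MICA was past it as well (2.25). ULBP1 entered only through benzene-run Green (25.8% of libraries against 6%), so nothing is read from its value. Hoechst-run cells over benzene-run Green were past 2-fold for 3 of 6 (38.7% of all genes tested), MICB at 2.91, PVR at 2.28 and ULBP1 at -1.05. These moved with single libraries, since without the highest library of each group ULBP1 was at -0.38 and MICA went from 0.27 to 1.91. With equal weight of libraries ULBP1 was at -0.06, PVR at 0.84, MICA at 1.33 and NECTIN2 at 1.93 in place of -0.36. Hoechst-run cells over imatinib-run Green were past it for 0 of 6 (32.9% of all genes tested), with values from -0.55 for ULBP1 to 0.14 for NCR3LG1. Of these 6, NECTIN2 moved from -0.07 to 1.39 when each library had equal weight, its share of libraries being 95.1% in the Hoechst run and 70% in imatinib-run Green. Among genes found in at least 20% of libraries of both groups compared, the counts were 2 of 5 (27.7% of such genes), 3 of 6 (34.3%) and 0 of 5 (30.6%) in the same order. The benzene-run Green group is shared by the first 2 of these comparisons, and by that of benzene Orange with Green, so its low MICB and PVR values enter all of them.

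Across the libraries of a run the ligand genes were correlated weakly, with higher medians among the NKG2D ligands. Among the 6 pairs of MICA, MICB, ULBP1 and ULBP2, the median Spearman correlation of CPM over libraries was 0.20 in the Hoechst run (n = 82), 0.26 in the benzene run (n = 65) and 0.19 in the imatinib run (n = 95). Among the other 15 pairs it was 0.09, 0.10 and 0.10, with single pairs as high as 0.21, 0.32 and 0.29. All 6 pairs of NKG2D ligands were above 0 in every run, as were 13 of 15 others, but in the imatinib run MICA with ULBP1 was at 0.004 and ULBP1 with ULBP2 at 0.007. MICA with MICB was at 0.16, 0.38 and 0.26, and reads of both were found in 47, 13 and 42 libraries where the shares alone would give 44.3, 9.14 and 34.6. MICA with ULBP2 was at 0.32, 0.24 and 0.21. The DNAM-1 ligands PVR and NECTIN2, both on chromosome 19, were at 0.05, 0.08 and 0.14. These values are descriptions, since the libraries of a run are not separate cultures by the labels, and correlations in sparse counts are small.

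**Figure D5:**
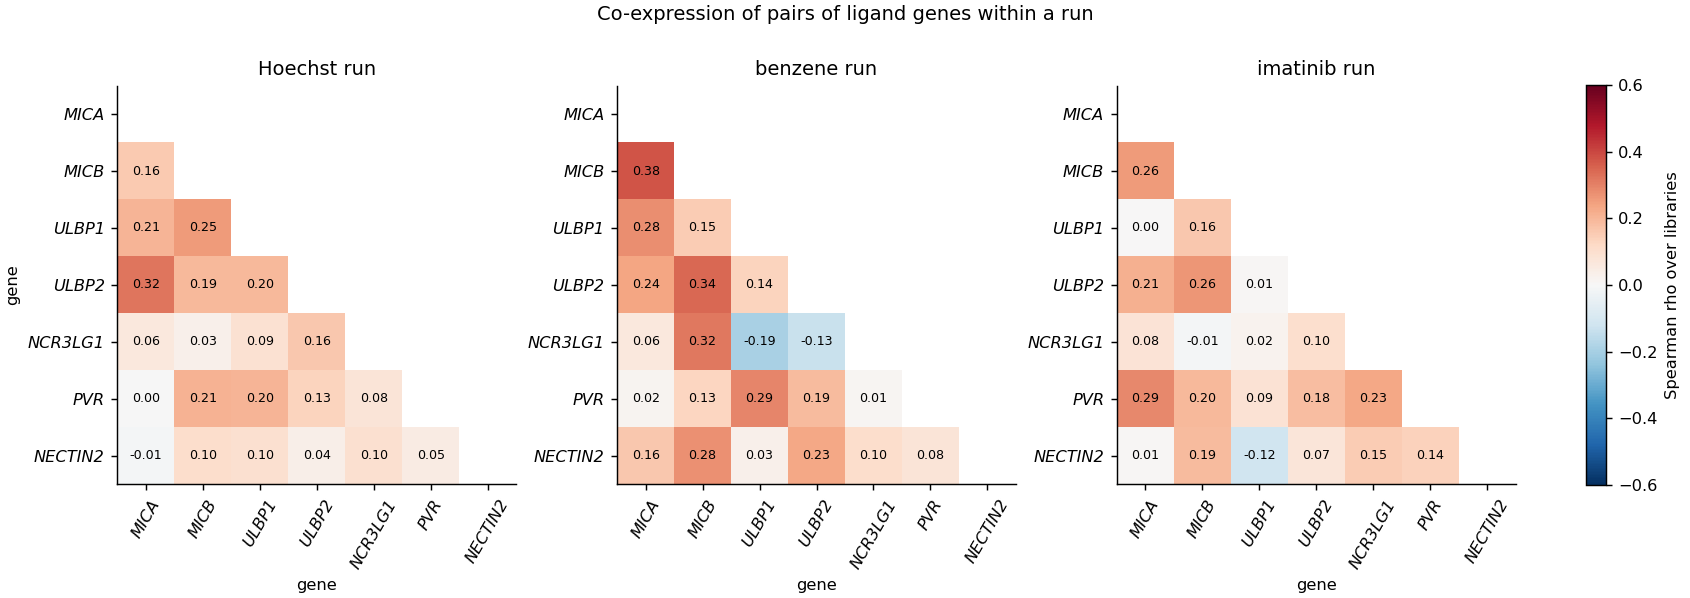
Spearman correlation of CPM over libraries for pairs of 7 ligand genes within the Hoechst run (n = 82), benzene run (n = 65) and imatinib run (n = 95). Values range from -0.19 to 0.38, and the pairs among MICA, MICB, ULBP1 and ULBP2 at the upper left at the upper left run from 0.004 to 0.38.

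The number of ligand genes detected correlated with the number of genes over 2 reads (Spearman 0.62, 0.32 and 0.47 in the 3 runs). Without the libraries over 9000 genes, the median of the NKG2D ligand pairs was 0.12, 0.11 and 0.17, and that of the other pairs 0.04, -0.01 and 0.10. Both medians fell in the Hoechst and benzene runs and moved by at most 0.02 in the imatinib run, and the part of the number of genes in the correlations was not tested. Of the 6 NKG2D ligand pairs 0, 2 and 1 were then below 0, with ULBP1 and ULBP2 at -0.14 in the benzene run. For comparison, the median correlation of MICA with all 10577 genes found in at least 20% of libraries of every run was 0.05 in the Hoechst run, 0.06 in the benzene run and 0.06 in the imatinib run. For MICB the same medians were 0.04, 0.10 and 0.07. The 95th percentiles were 0.25, 0.26 and 0.25 for MICA and 0.23, 0.31 and 0.25 for MICB. MICA with MICB lay below that of either gene in the Hoechst run (0.16) and above both in the benzene run (0.38). In the imatinib run the pair was only just above them (0.255 against 0.251 and 0.249).

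The genes most like each ligand were ranked by the mean over runs of the within-run Spearman correlation, for the 5 ligands found in at least 20% of libraries of every run. For NECTIN2 the leading gene was MYB, a transcription factor of haematopoietic progenitors (mean 0.32, with 0.26, 0.28 and 0.44 in the Hoechst, benzene and imatinib runs). MYB also ranked first without the libraries over 9000 genes (0.32). FOXP4-AS1 (0.28) and ZNF77 (0.27) followed. For MICB the leading genes were MFSD8, a lysosomal membrane protein (0.34), TTC33 (0.32) and NAA80, which acetylates actin (0.30). For MICA they were the pseudogene CYP51A1P2 (0.31), COPZ1, a subunit of the COPI vesicle coat (0.31), and PDCL (0.30). SLC35A3 (0.33), ENSG00000236194 (0.31) and GLCE, an enzyme of heparan sulfate synthesis (0.31), led for NCR3LG1, and TRAPPC2B (0.33), IQSEC2 (0.32) and CCM2 (0.30) for PVR. Without the libraries over 9000 genes PDCL and MFSD8 ranked first, CYP51A1P2 and FOXP4-AS1 second, TTC33 at 3, SLC35A3 at 4, COPZ1 at 6, ZNF77 at 7, CCM2 at 8 and TRAPPC2B at 9. IQSEC2 fell to 14, ENSG00000236194 to 16, GLCE to 21 and NAA80 to 26, so that these places rested in part on those libraries. All means were at most 0.34, and no ligand was among the leading genes of another.

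Markers of the labelled line were present, and most of those of blood cell types were found in under 20% of libraries, with CD3D and LYZ among the exceptions. The leading gene of each list is given by level per length. All 12 erythroid and K562 markers were found in at least 20% of libraries, led by HBG2, a fetal globin, and summing to 8126 to 9638 CPM by group. Of 10 NK cell receptor genes 0 were found in 20% of libraries, and of the 5 NK cell, 5 T cell and 4 monocyte markers 0, 2 and 1 were. The T cell markers summed to 11.7 to 144 CPM, led by CD3D (129.9 CPM in the Hoechst run and 8.84 in imatinib-run Orange, beside 14.4 and 4.6 for CD3G), with CD8A at 0. The NK cell markers summed to 6.5 to 13.1 CPM, and the monocyte markers, led by LYZ, to 19.6 to 43.7. LYZ was found in 78.9% of libraries. CD3D was found in 56.2%, from 24.4% in imatinib-run Orange to 92.7% in the Hoechst run.

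BAG6, the other NKp30 ligand of the list, was found in 97.9% of libraries at 128 CPM. Among 11 inhibitory ligands 3 were found in at least 20% of libraries, led by B2M, the light chain of class I HLA (438 CPM), and of these 3 the benzene run had 1 that was 2-fold higher in Orange and the imatinib run 0. Over all genes tested, 14% were 2-fold higher and 11.7% lower in Orange in the benzene run, and 4.4% higher and 4.96% lower in the imatinib run. Of 13 adhesion and co-stimulatory ligands 8 were found so, led by ICAM3 (49.8 CPM). In the benzene run 1 was 2-fold higher and 4 lower in Orange of 8 tested, and in the imatinib run 2 were higher and 0 lower of 8. The following genes are named because they were past 2-fold in 1 direction in both runs, as were 0.953% (higher) and 0.867% (lower) of all 11652 genes tested in both, and their ratios are a description. TNFSF9, the ligand of the co-stimulatory receptor 4-1BB, was higher in Orange, at 6.24 CPM in Orange and 1.32 in Green (log2 ratio 1.64) and at 3.95 and 1.27 (1.13). In the benzene run it entered only through Orange (38.2% of libraries against 19.4%). TNFRSF10A, a receptor of the death ligand TRAIL, was lower in Orange in both, at 21.6 and 73.7 CPM (-1.73) and at 25.2 and 64.9 (-1.33). Of the 4 death receptors 3 were tested, of which 1 was higher and 1 lower in Orange in the benzene run and 1 lower in the imatinib run. By the edgeR test neither TNFSF9 nor TNFRSF10A was called, and 0 genes of any list were. Of 10 regulators of NKG2D ligands, mostly DNA damage kinases and transcription factors and led by ATF4, 10 were tested. In the benzene run 1 was 2-fold higher in Orange (median 0.12) and in the imatinib run 0 (median -0.10). Of 6 genes of ligand shedding, led by PDIA6, 3 were tested and 0 were past 2-fold in either run, and the 5 other nectins and their partners were at most at 0.134 CPM in sum.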

How the data were processed

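The cDNA libraries of K562 cells, from a study of C1 single cells and bulk samples, were analysed from the table of counts. The labels used do not separate the 2 kinds. The authors trimmed reads with skewer, aligned them with HISAT2 to GRCh37 with ERCC sequences, and deposited counts of uniquely mapped reads per Ensembl gene from featureCounts (Subread 1.5.0 in the submitters' processing notes). The deposited CPM table was not used. In the benzene run 4 titles matched no column and 4 columns no title, and these were left out. Symbols and lengths came from GENCODE v44lift37, which held 55665 of the identifiers with 99.0% of the reads, and promoters from RefSeq, where all 8 genes were found. Levels are summed reads per 1000000 reads on genes (CPM, pseudocount 1 in ratios). Reads carry no molecular identifiers, so exact 95% intervals and floors of 3 counts cover counting error only. Sums per run and stain were compared with edgeR 4.0.16, and alternatively with limma 3.58.1 and DESeq2 1.42.0 (R 4.3.3). Python 3.11.15 with pandas 2.3.3, numpy 2.4.6, scipy 1.17.1 and biopython 1.88 gave the remaining values, and the steps were tested on simulated data. Ratios included genes found in at least 20% of libraries of either group. The 8 genes were always named. From the other lists the text names the gene with the highest level and any past 2-fold in both CellTracker runs in 1 direction, while CD8A and the further ULBP genes were named after their values were seen. A further marker list is not reported here. The genes, lists and alternatives were chosen with earlier results of these data known.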

Additional observations from a re-analysis of the deposited data

Results flagged for a closer look

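MICB, PVR and NCR3LG1 had Orange over Green ratios of opposite sign in the CellTracker runs, each with a counting interval that did not include 0. These intervals cover counting error only. In both runs they left out 0 for every ligand with reads, so nothing is read from them. For MICB the log2 ratio was 2.12 in the benzene run and -0.63 in the imatinib run, for PVR 2.83 and -1.11, and for NCR3LG1 -0.22 and 0.46. With 1 sum per stain and run, the difference between the runs was not tested, and without the highest library of each group NCR3LG1 was at 0.02 in the benzene run. Ligand reads were also present in the 21 libraries set aside for having over 70% of reads in 500 genes, above the level that 3 counts allow (0.229 CPM). They summed to 25.6 CPM for NCR3LG1, 7.33 for MICB, 1.37 for NECTIN2, 1.22 for ULBP2 and 0.763 for MICA. Of these, 325 of the 335 NCR3LG1 reads and 95 of the 96 MICB reads came from 1 library each.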

How the results depend on the processing

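Over 211 results, 1007 alternative values were computed, of which 108 were added after the data were seen. The call count of the stain comparison was 0 with edgeR under every setting and 117 with DESeq2 (60 higher and 57 lower in Orange). The run, which also sets the drug, is the pairing of that test, and without this block 0 genes were called as well (387 at an unadjusted p under 0.05, against 439). Leaving out 1 run leaves values without a test, and these ranged from -0.63 to 2.12 for MICB, -1.11 to 2.83 for PVR, -0.22 to 0.46 for NCR3LG1 and 0.26 to 4.47 for ULBP2. The number of ligands past 2-fold fell with equal weight of libraries to 0 in the benzene run and 0 in the imatinib run, and rose to 1 for Hoechst over imatinib-run Green. With a pseudocount of 10 it was 0 in the imatinib run and 1 each for Hoechst and imatinib-run Green over benzene-run Green. Without the highest library of each group it was 1 in the imatinib run, 1 for Hoechst over imatinib-run Green and 4 for imatinib-run over benzene-run Green. The second of these was ULBP1 at 1.39, and the 4 included ULBP1 at -1.77. ULBP1 entered these comparisons only through Hoechst and only through benzene-run Green, so nothing is read from either value. Without the libraries over 9000 genes the number past 2-fold was 2 in the benzene run and 3 in the imatinib run, with MICB at -1.03. The mean number of ligands per library was 2.46 in the Hoechst run and 1.89 in imatinib-run Orange when 10 reads were asked for. The cause of these changes was not tested, except that a larger pseudocount lowers ratios of low genes by construction.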

Other observations

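The libraries with the highest level of a ligand differed from gene to gene. Over the 5 groups and the 7 genes with reads, the 35 highest libraries were 32 different ones, and 3 of them were highest for 2 genes. In benzene-run Orange the library highest for MICA (214 CPM) was also the highest for ULBP2 (402 CPM). In imatinib-run Green the library highest for MICB (991 CPM) was also the highest for NECTIN2 (1053 CPM). In benzene-run Green 1 library, with 11248 genes over 2 reads, was highest for ULBP2 (2.58 CPM) and PVR (18 CPM). Of the 35, 5 had over 9000 genes with more than 2 reads.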
